A study of Mus musculus with 12 samples.

Results

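The 10 genes described here encode junction proteins and transporters of the vessel wall that forms the blood-brain and blood-spinal cord barrier, together with Plvap, a marker of leaky vessels. They were chosen by name from the 54532 genes of the deposited count table: the junction genes Cldn5, Ocln, Tjp1 and Cdh5, the transporter genes Mfsd2a, Slc2a1, Abcb1a, Abcg2 and Slco1a4, and Plvap. All 10 were found, and all 10 passed the filter on low counts in every comparison. RNA of whole spinal cord had been sequenced from mice of 4 groups with 3 libraries each. The first group, cKO EAE, held mice labelled Drd2mGFAP cKO at day 17 of experimental autoimmune encephalomyelitis (EAE), an immune attack on myelin that models multiple sclerosis. The second, control EAE, held littermates labelled wt at the same day. The groups cKO basal and control basal held the same genotypes without EAE. The strain was C57BL/6 throughout, the age 2 to 3 months, and RNA was extracted with Trizol. The genotype label names Drd2, the dopamine D2 receptor gene, and the promoter of GFAP, active in astrocytes but not in them alone. The question named in the series title is whether blocking astrocytic DRD2 lessens inflammation in this model.

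Endothelial cells of the brain and spinal cord are sealed to each other by tight junctions, so that solutes cross through the cells and not between them. Claudin-5 (Cldn5) and occludin (Ocln) are membrane proteins of these junctions, ZO-1 (Tjp1) anchors them to the cytoskeleton, and VE-cadherin (Cdh5) forms the adherens junctions beneath. Carriers such as GLUT1 (Slc2a1) bring nutrients in, efflux pumps such as P-glycoprotein (Abcb1a) keep drugs out, and Mfsd2a carries lipids and holds vesicle traffic low. Plvap forms the diaphragms of fenestrae and caveolae in the vessels of other organs, and mature barrier endothelium makes little of it. In EAE the barrier opens where leukocytes enter. Several of these genes are not made by endothelium alone: ZO-1 and GLUT1, for example, are also made by glia.

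The libraries held 15128913 to 17592105 counts, and levels are given as TMM-normalised CPM (counts scaled to a common library size). Drd2 was at 12.8 ± 6.33 CPM in cKO EAE, 9.15 ± 0.396 in control EAE, 28.5 ± 9.49 in cKO basal and 21.9 ± 4.02 in control basal (SD, n = 3 each), so that its level in whole cord was not lower in the cKO groups. The library cKO basal 2 stood apart. It had 17220 detected genes, against 24303 to 26056 in the others, and ribosomal protein genes took 5.68% of its counts, against 0.879 to 1.80%. The library cKO EAE 3 had 6.56 CPM of Cd74, an antigen presentation gene that averaged 1582 ± 1004 CPM in control EAE and 2.29 ± 1.09 in control basal. Ddx3y, a gene of the Y chromosome, was at 69.6 to 74.4 CPM in the 6 EAE libraries and at 0 in every basal one, so every comparison of EAE with basal is also one of sex, and both cannot be told apart. In whole cord, fewer cells of a type and less RNA per cell cannot be told apart.

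The general endothelial markers, a list of 15 genes such as Vwf, Pecam1 and Kdr that holds none of the 10 genes described here, were counted in every library and none was at 0 in any. Their summed level had a lowest, median and highest value of 578, 755 and 796 CPM in cKO EAE, 722, 742 and 924 in control EAE, 281, 329 and 410 in cKO basal, and 336, 337 and 358 in control basal. In both genotypes every EAE library lay above every basal library. RNA of these markers was thus present in all groups, and higher by this sum at EAE. Pecam1, Eng, Cd34 and Ly6c1 of this list can also be made by leukocytes, so the sum is not of endothelium alone. The part of leukocytes in it was not tested.

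Levels of different genes can be compared only per length, as CPM per kilobase of gene length (RPKM). In control basal cords Slc2a1 was highest at 48.5 ± 1.19 RPKM, followed by Mfsd2a at 30.4 ± 2.83 and Cldn5 at 21.3 ± 3.42. Tjp1 (13.7 ± 3.05) and Slco1a4 (11.2 ± 0.732) came next and did not differ beyond their spread, nor did Abcb1a (7.26 ± 0.642) and Plvap (6.70 ± 1.32). Abcg2 (3.13 ± 0.416), Cdh5 (3.04 ± 0.375) and Ocln (2.07 ± 0.164) were lowest (SD, n = 3 each), with Abcg2 and Cdh5 within each other's spread. In control EAE cords Slc2a1 again led with 66.8 ± 5.64 RPKM, Cldn5 stood at 45.5 ± 3.92, Tjp1 at 29.0 ± 2.57 and Mfsd2a at 22.1 ± 3.38.

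**Figure D1:**
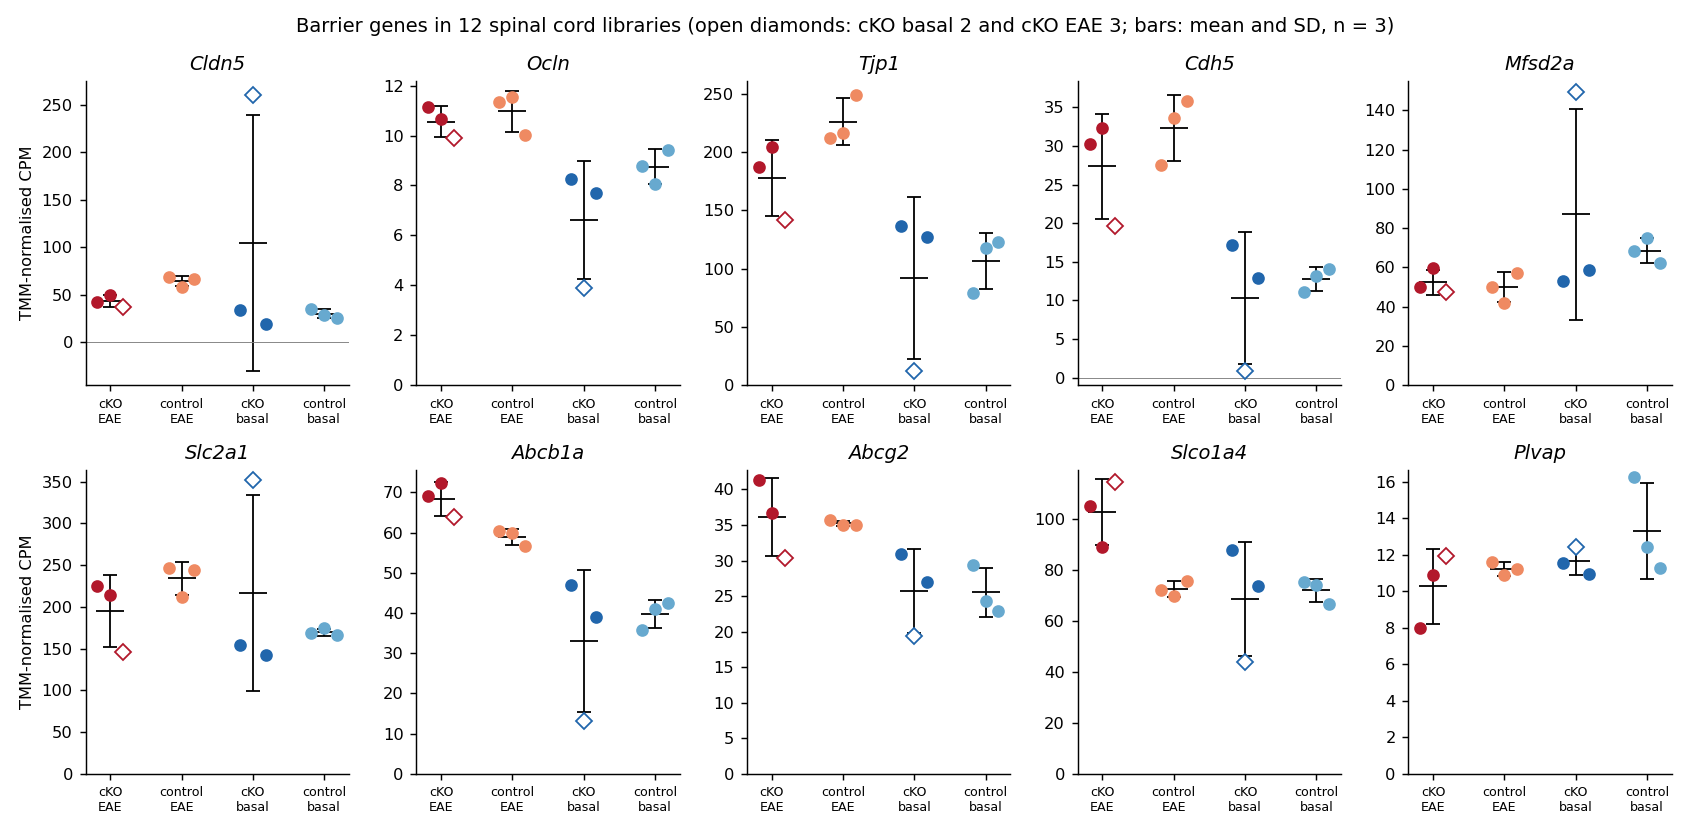
TMM-normalised CPM (vertical axes, each on its own scale) of the 10 barrier genes in cKO EAE, control EAE, cKO basal and control basal spinal cords. Points are libraries, bars are means with SD (n = 3), and open diamonds are cKO basal 2 and cKO EAE 3. Cldn5 in cKO basal 2 reached 260.4 CPM, while the other basal libraries stayed between 19.7 and 35.5.

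Promoter windows, the 250 bases before the gene's start, are shown for 3 genes whose levels set them apart below: Cldn5 and Slco1a4, which lay on opposite sides of the controls in cKO EAE cords, and Mfsd2a, which lay lower at EAE in control mice while most barrier genes lay higher. The sequences are RefSeq's (GRCm38.p6), on the strand of the gene, and 8 of the 10 genes were matched, with 11 windows; Cdh5 and Plvap were not. Capitals mark matches to the motifs searched on both strands: the CCAAT box (CCAAT), the GC box (GGGCGG), the TATA box (TATAAA), the ETS core (GGAAGT), the FOX core (GTAAACA), the SOX core (AACAAT) and the TCF/LEF core (CTTTGA). These letters do not overlap one another in the windows shown. The windows are chr16:18776597-18776846 (plus strand) for Cldn5, chr6:141856221-141856470 (minus strand) for Slco1a4 and chr4:122961189-122961438 (minus strand) for Mfsd2a.
Cldn5: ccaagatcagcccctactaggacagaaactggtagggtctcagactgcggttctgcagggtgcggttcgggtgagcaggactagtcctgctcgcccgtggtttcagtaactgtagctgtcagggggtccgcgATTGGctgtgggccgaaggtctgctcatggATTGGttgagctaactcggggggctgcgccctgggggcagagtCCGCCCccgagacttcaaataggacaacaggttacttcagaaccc
Slco1a4: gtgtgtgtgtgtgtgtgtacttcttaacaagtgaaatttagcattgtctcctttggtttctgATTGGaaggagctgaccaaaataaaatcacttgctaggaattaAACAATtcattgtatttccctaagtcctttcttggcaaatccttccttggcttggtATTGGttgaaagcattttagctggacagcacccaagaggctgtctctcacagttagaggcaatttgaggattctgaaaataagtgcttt
Mfsd2a: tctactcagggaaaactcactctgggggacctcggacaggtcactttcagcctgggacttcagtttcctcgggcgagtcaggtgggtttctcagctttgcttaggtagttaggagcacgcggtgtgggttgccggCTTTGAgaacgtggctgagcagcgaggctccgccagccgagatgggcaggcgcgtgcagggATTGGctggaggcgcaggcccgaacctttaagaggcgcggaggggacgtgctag
All 3 windows hold CCAAT on the reverse strand (read as ATTGG), as does a window of Ocln. Of all 32851 RefSeq windows, 33.8% hold it on either strand, as counted for each motif here. The Cldn5 window also holds GGGCGG, found in 32.7% of all windows, the Slco1a4 window AACAAT (9.42%) and the Mfsd2a window CTTTGA (13.8%). TATAAA, in 12.4% of all windows, was in none of the 11. Each match is a description of the letters only.

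The first question was what EAE did to the barrier genes in control mice. Junction genes lay higher at EAE: Cldn5, Tjp1 and Cdh5 were each more than doubled in their mean, and Mfsd2a was the only barrier gene whose EAE libraries all lay below the basal ones. Slco1a4 and Plvap overlapped between the states. Of the 10 genes, 8 had EAE and basal libraries that did not overlap, 7 higher and 1 lower, against 56.8% of all tested genes (29.8% higher and 27% lower).

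Among the junction genes, Cldn5 (ENSMUSG00000041378, chromosome 16, 18776847 to 18778262, plus strand, mm10) had 68.9, 58.2 and 66.1 CPM in control EAE cords, against 35.5, 29.0 and 26.0 in control basal cords. Cdh5 had 27.6, 33.7 and 35.8 CPM in control EAE cords, against 11.1, 13.2 and 14.1 in control basal cords. Neither gene's groups overlapped, and the lowest EAE library lay well above the highest basal one. Tjp1 had 212, 217 and 249 CPM in control EAE cords, against 79.3, 118 and 123 in control basal cords. Ocln had 11.4, 11.5 and 10.01 CPM in control EAE cords, against 8.77, 8.05 and 9.44 in control basal cords, a smaller gap with no overlap.

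Among the transporters, Mfsd2a (ENSMUSG00000028655, chromosome 4, 122946850 to 122961188, minus strand) had 50.2, 42.0 and 57.2 CPM in control EAE cords, against 68.5, 74.8 and 62.1 in control basal cords. It went the other way from the glucose carrier Slc2a1, with 246, 211 and 245 CPM in control EAE cords, against 169, 174 and 166 in control basal cords. The efflux pump Abcb1a had 60.3, 59.9 and 56.5 CPM in control EAE cords, against 35.8, 41.0 and 42.5 in control basal cords. Abcg2, another efflux pump, had 35.7, 35.0 and 35.0 CPM in control EAE cords, against 29.3, 24.3 and 22.9 in control basal cords. Neither pump overlapped between the states. Slco1a4, a carrier of organic anions, had 72.3, 69.8 and 75.8 CPM in control EAE cords, against 75.1, 74.3 and 66.6 in control basal cords, and Plvap had 11.6, 10.9 and 11.2 CPM in control EAE cords, against 16.3, 12.4 and 11.3 in control basal cords. The levels of both overlapped between the states.

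In 1 fit of all 12 libraries, the quasi-likelihood test of edgeR (p-values adjusted by Benjamini-Hochberg) called 0 of the 10 genes, against 17.1% of all 18601 genes tested; 1 of the 10 had an unadjusted p below 0.05, against 28.6% of all genes. That fit takes its spread from every library, cKO basal 2 included. Fitted on the 6 control libraries alone, the same test called 7 of the 10, 6 higher and 1 lower, against 45.6% of all genes tested (24.5% higher and 21.1% lower). The same 7 were called when cKO basal 2 was left out of the 12 libraries (42.9% of genes) and when cKO EAE 3 was left out as well (45.8%). In the control libraries alone, the log2 fold change of Cdh5 was 1.34 (SE 0.15, adjusted p = 0.000112), of Cldn5 1.09 (SE 0.14, adjusted p = 0.000247) and of Tjp1 1.08 (SE 0.18, adjusted p = 0.000907) by edgeR. Abcb1a had 0.56 (SE 0.12, adjusted p = 0.00335), Slc2a1 0.46 (SE 0.12, adjusted p = 0.0111), Abcg2 0.47 (SE 0.13, adjusted p = 0.0157) and Mfsd2a -0.46 (SE 0.14, adjusted p = 0.0244). Those estimates were nearly the same in both fits, and the SE differed: that of Cldn5 was 0.73 with 12 libraries. Over the alternatives run, the adjusted p of Cldn5 ran from 9.5e-06 to 0.59, of Cdh5 from 5.09e-06 to 0.447, of Tjp1 from 1.37e-05 to 0.553 and of Mfsd2a from 0.00114 to 0.699. Ocln (0.33 in the 12-library fit), Slco1a4 (0.01) and Plvap (-0.24) passed in neither fit. The median log2 fold change of the 10 genes was 0.46, beside -0.01 over all genes.

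Markers of other cells moved with EAE in control mice. All 9 monocyte and macrophage markers and all 9 T cell markers were called higher in the 12-library fit of edgeR, with summed levels of 4083 to 8605 CPM in control EAE, against 46.7 to 74.8 in control basal, for the first list, and of 106 to 115 CPM in control EAE, against 4.08 to 5.41 in control basal, for the second. In control basal libraries 0 to 3 of the first list and 3 to 5 of the second were at 0. Of 8 microglia markers 7 were called higher, with a sum of 1821 to 2205 CPM in control EAE and 269 to 283 in control basal, and of 8 tested markers of fibroblasts and meninges 5, with a sum of 406 to 427 CPM in control EAE and 103 to 110 in control basal. Pericytes and smooth muscle had 1 of 12 called, higher, with a sum of 421 to 471 CPM in control EAE and 255 to 284 in control basal. Of 10 neuronal markers 6 were called lower, with a sum of 2379 to 3423 CPM in control EAE and 6679 to 7763 in control basal. All 8 Hox genes listed for position along the cord lay lower without overlap in control EAE, against 27% of all tested genes. Of them 2 were called lower, with a sum of 275 to 290 CPM in control EAE and 476 to 653 in control basal. Whether the part of the cord taken differed was not tested. The part of these lists in the values of the barrier genes was not tested either.

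**Figure D2:**
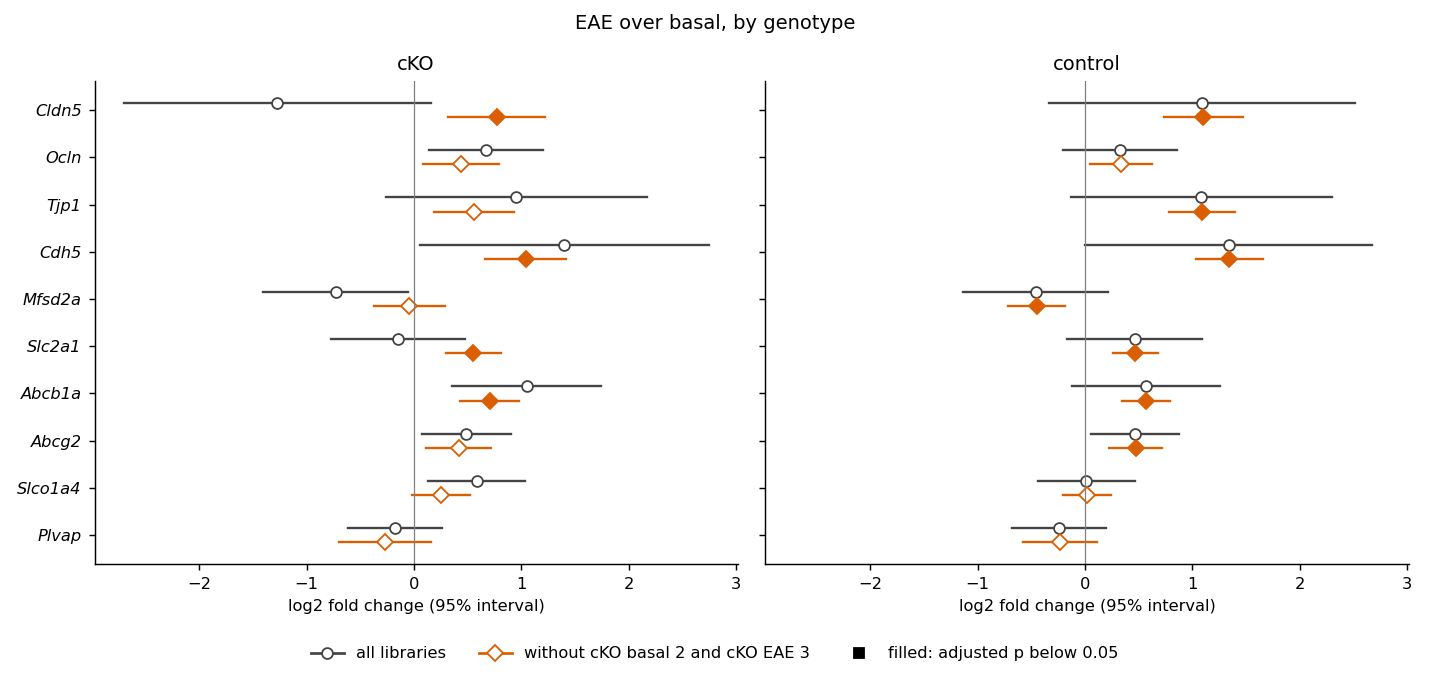
Fitted log2 fold changes of EAE over basal (horizontal axis) with approximate 95% intervals for each barrier gene, in cKO mice on the left and control mice on the right. An interval can exclude 0 where the test had a p above 0.05. Circles are the fit of all libraries and diamonds the fit without cKO basal 2 and cKO EAE 3; filled symbols have an adjusted p below 0.05. In control mice the estimates barely moved between the fits, while in cKO mice that of Cldn5 moved from -1.28 to 0.77.

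In cKO mice 5 of the 10 genes lay higher in every EAE library than in any basal one, and the order of Cldn5 depended on 1 library. Cldn5 had 42.3, 49.9 and 37.4 CPM in cKO EAE cords, against 33.9, 260.4 and 19.7 in cKO basal cords. Leaving cKO basal 2 aside, every cKO EAE library lay above the cKO basal ones. Cdh5 had 30.2, 32.3 and 19.6 CPM in cKO EAE cords, against 17.2, 0.817 and 12.9 in cKO basal cords, and Tjp1 had 187, 205 and 142 CPM in cKO EAE cords, against 136, 11.9 and 127 in cKO basal cords. Both were higher in every EAE library. Ocln had 11.1, 10.6 and 9.90 CPM in cKO EAE cords, against 8.25, 3.91 and 7.68 in cKO basal cords, again without overlap.

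Of the transporters in cKO mice, Abcb1a had 69.0, 72.3 and 63.8 CPM in cKO EAE cords, against 46.9, 13.1 and 38.9 in cKO basal cords. Slco1a4 had 105, 89.0 and 115 CPM in cKO EAE cords, against 87.8, 44.1 and 73.8 in cKO basal cords. Neither gene overlapped between the states, whereas the following 3 did. Abcg2 had 41.3, 36.7 and 30.4 CPM in cKO EAE cords, against 31.0, 19.3 and 26.9 in cKO basal cords. Slc2a1 had 225, 214 and 146 CPM in cKO EAE cords, against 154, 352 and 143 in cKO basal cords, and Mfsd2a had 49.9, 59.4 and 47.7 CPM in cKO EAE cords, against 53.2, 149 and 58.5 in cKO basal cords. For both, cKO basal 2 was the highest of all 12 libraries. Plvap had 7.98, 10.9 and 11.96 CPM in cKO EAE cords, against 11.6, 12.4 and 10.96 in cKO basal cords, with overlap. Its value in cKO EAE 1 was the lowest of all 12 libraries.

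With all 12 libraries, the same edgeR test called 0 of the 10 genes for EAE against basal in cKO mice, beside 0.0376% of all genes (7 of 18601). An unadjusted p below 0.05 was met by 4 of the 10 (Ocln, Abcb1a, Abcg2 and Slco1a4), against 19.6% of all genes, and 5 of the 10 had EAE libraries that did not overlap the basal ones, all of them higher, against 15.6% of all genes (9.8% higher). The log2 fold change was 1.40 (SE 0.69) for Cdh5, 1.05 (SE 0.35) for Abcb1a and -1.28 (SE 0.73) for Cldn5. The median of the 10 was 0.54, beside 0.08 over all genes. In a fit without cKO basal 2 and cKO EAE 3, chosen after these values were seen, the test called 4 of the 10, all higher at EAE, and 14.3% of all genes (10.8% higher). These were Cdh5 at 1.04 (SE 0.19, adjusted p = 0.00274), Abcb1a at 0.71 (SE 0.14, adjusted p = 0.00414), Slc2a1 at 0.55 (SE 0.13, adjusted p = 0.0134) and Cldn5 at 0.77 (SE 0.23, adjusted p = 0.0425) by edgeR, with a median of 0.50 over the 10. Slc2a1 and Cldn5 thus changed direction with the libraries kept. Over all alternatives the adjusted p of Cdh5 ran from 0.00274 to 0.709, of Abcb1a from 0.00414 to 0.709, of Slc2a1 from 0.0103 to 0.989 and of Cldn5 from 0.0263 to 0.726.

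The deviation of cKO basal 2 followed gene length in part. Against the mean of the other cKO basal libraries, on the scale of log2(CPM + 1), it was 3.28 higher for Cldn5 (9.73-fold; 1416 bases in the deposited table), 1.40 higher for Mfsd2a (2250 bases), 1.24 higher for Slc2a1 (3506 bases) and 0.13 higher for Plvap (1987 bases). Its difference was -3.36 for Tjp1 (7811 bases), -3.13 for Cdh5 (4203 bases), -1.64 for Abcb1a (5480 bases), -0.87 for Ocln (4222 bases), -0.86 for Slco1a4 (6414 bases) and -0.55 for Abcg2 (8153 bases). The 4 shortest genes lay above and the 6 longest below the other cKO basal libraries. Over all genes with a mean of at least 1 CPM, the median of this difference was 0.84 up to 1500 bases, 0.32 from 1501 to 2500, -0.08 from 2501 to 5000 and -0.61 beyond. Cldn5, Tjp1 and Cdh5 lay far beyond the median of their length. Mfsd2a, Abcb1a, Ocln and Slco1a4 lay beyond theirs by less, and Plvap and Abcg2 near theirs. Slc2a1, at 1.24, went the other way from its class, whose median was -0.08. The part of length in these values was not tested. A smaller difference of the same kind was found in control basal 1, the library with the fewest detected genes after cKO basal 2. Its medians against control basal 2 and 3 were 0.33, 0.27, 0.08 and -0.18 over the same length classes. From the shortest gene to the longest, its difference was 0.36 for Cldn5, 0.43 for Plvap, 0.007 for Mfsd2a and -0.01 for Slc2a1. It was -0.28 for Cdh5, 0.007 for Ocln, -0.22 for Abcb1a, 0.09 for Slco1a4, -0.60 for Tjp1 and 0.30 for Abcg2. The longest gene, Abcg2, thus went against the length trend.

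**Figure D3:**
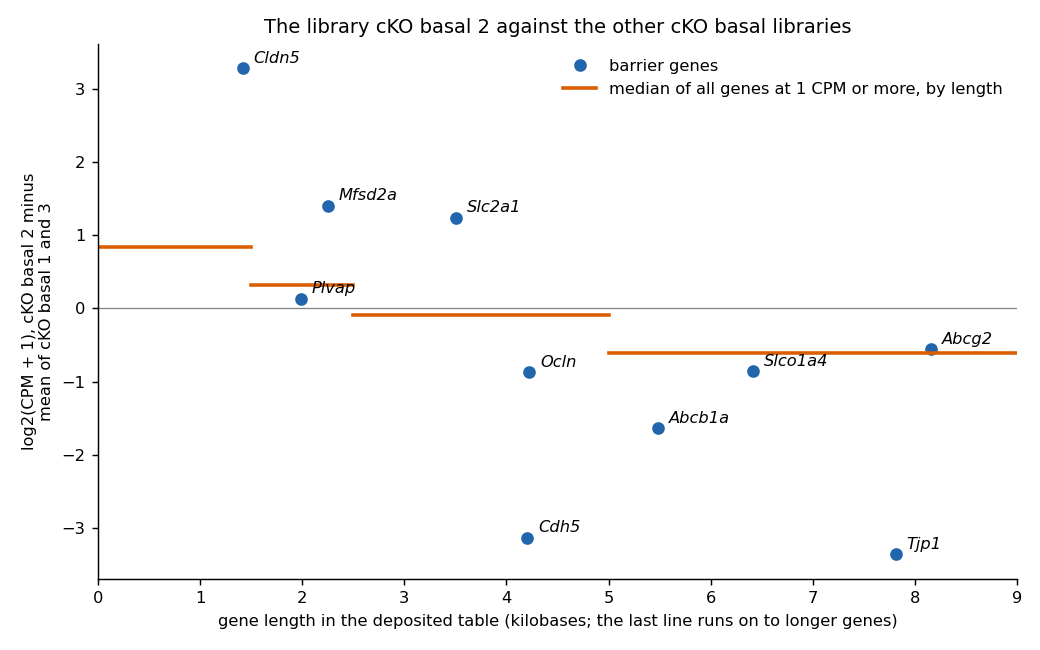
Difference on the log2(CPM + 1) scale between cKO basal 2 and the mean of cKO basal 1 and 3 (vertical axis) against gene length in kilobases (horizontal axis). Points are the 10 barrier genes and lines the medians of all genes at 1 CPM or more in each length class, the last of which runs on to longer genes. Cldn5, at 3.28, lay far above its class median of 0.84, and Tjp1, at -3.36, far below that of -0.61.

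Whether the response to EAE differed between the genotypes was tested as the difference of both changes. In edgeR's test no gene of 18601 passed after adjustment (0% called), with 1697 (9.12%) at an unadjusted p below 0.05, and DESeq2's Wald test called 91 genes and limma voom 2999. None of the 10 barrier genes was called by any of these 3. DESeq2 gave Ocln and Plvap no adjusted p here, so neither could be called by it. Cldn5 came nearest, as the only 1 of the 10 with an unadjusted p below 0.05, with a difference of -2.37 (SE 1.03, adjusted p = 0.547 by edgeR), and it was -0.33 (SE 0.29) without cKO basal 2 and cKO EAE 3. For Slco1a4 the difference was 0.57 with an approximate 95% interval of -0.06 to 1.21, and for Plvap 0.06 with an interval of -0.56 to 0.68. The intervals are wide, so similar responses were not shown either.

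The next comparison asked how the barrier genes of cKO mice differed from those of control mice within EAE, where all 6 libraries carried male RNA. Slco1a4 was higher and Cldn5 lower in every cKO EAE library than in any control EAE library. Slco1a4 (ENSMUSG00000030237, chromosome 6, 141805440 to 141856199, minus strand, mm10) averaged 103 ± 12.9 CPM in cKO EAE and 72.6 ± 3.04 in control EAE, and Cldn5 averaged 43.2 ± 6.30 CPM in cKO EAE and 64.4 ± 5.54 in control EAE (SD, n = 3 each). Abcb1a was also higher without overlap, at 68.4 ± 4.27 CPM in cKO EAE and 58.9 ± 2.07 in control EAE, and Tjp1 lower, at 178 ± 32.3 CPM in cKO EAE and 226 ± 20.1 in control EAE (SD, n = 3 each). The groups of the other 6 genes overlapped. Separation of both groups, met by 4 of the 10 genes with 2 in each direction, was met by 47.8% of all genes tested in these libraries (21.2% higher and 26.6% lower).

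By the quasi-likelihood test of edgeR, adjusted by Benjamini-Hochberg, 1 of the 10 genes passed, against 7.67% of all genes (1374 of 17914, 6.13% higher), and 3 of the 10 had an unadjusted p below 0.05, against 35.9%. The gene that passed was Slco1a4, with a log2 fold change of 0.54 (SE 0.12, adjusted p = 0.0474). Cldn5 had -0.54 (SE 0.13, adjusted p = 0.0512), Abcb1a 0.25 (SE 0.08, adjusted p = 0.0919) and Tjp1 -0.31 (SE 0.15, adjusted p = 0.183). The call of Slco1a4 rests on single libraries: it was lost without cKO EAE 1 or any 1 of the control EAE libraries, each time with 0 genes called in all. It was also lost with all 12 libraries in the fit (0 genes) and with the size factors of DESeq2. Without cKO EAE 2, and likewise without cKO EAE 3, both Slco1a4 and Cldn5 passed; without cKO EAE 3 the values were 0.46 (SE 0.11, adjusted p = 0.0283) and -0.45 (SE 0.12, adjusted p = 0.0344) among 18.2% of genes called. Over all alternatives the adjusted p of Slco1a4 ran from 0.00358 to 0.361 and that of Cldn5 from 0.00454 to 0.862, with no change of sign in either. The median of the 10 was -0.06, beside -0.00 over all genes.

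Markers of other cells moved with the genotype at EAE. All 9 monocyte and macrophage markers were lower without overlap in cKO EAE libraries, with a summed level of 122 to 2263 CPM in cKO EAE and 4083 to 8605 in control EAE, and none was at 0 in an EAE library. Of 10 neuronal markers 8 were higher without overlap, with a sum of 5085 to 6774 CPM in cKO EAE and 2379 to 3423 in control EAE. The endothelial list had 2 of 15 genes above and 1 below, with a median log2 fold change of -0.10. The part of these differences in the values of Slco1a4 and Cldn5 was not tested.

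Without disease, no barrier gene separated the genotypes with all libraries kept. All 10 had overlapping cKO basal and control basal libraries, where 5.77% of all genes did not overlap. Leaving cKO basal 2 aside, Mfsd2a (53.2 and 58.5 CPM) and Slc2a1 (154 and 143) lay below every control basal library. Tjp1 (136 and 127 CPM) lay above them. None of the 10 was called without cKO basal 2, and the share of all genes not overlapping was not computed there. The test of edgeR called 0 of 17133 genes (0%), with 31 (0.181%) and 0 of the 10 at an unadjusted p below 0.05, and DESeq2 called 1 gene. The intervals are wide, with Cldn5 at 1.82 and an approximate 95% interval of -0.09 to 3.73 on the log2 scale. Without cKO basal 2 the widest were those of Cldn5, at -0.17 with -0.66 to 0.32, and Plvap, at -0.24 with -0.65 to 0.17.

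**Figure D4:**
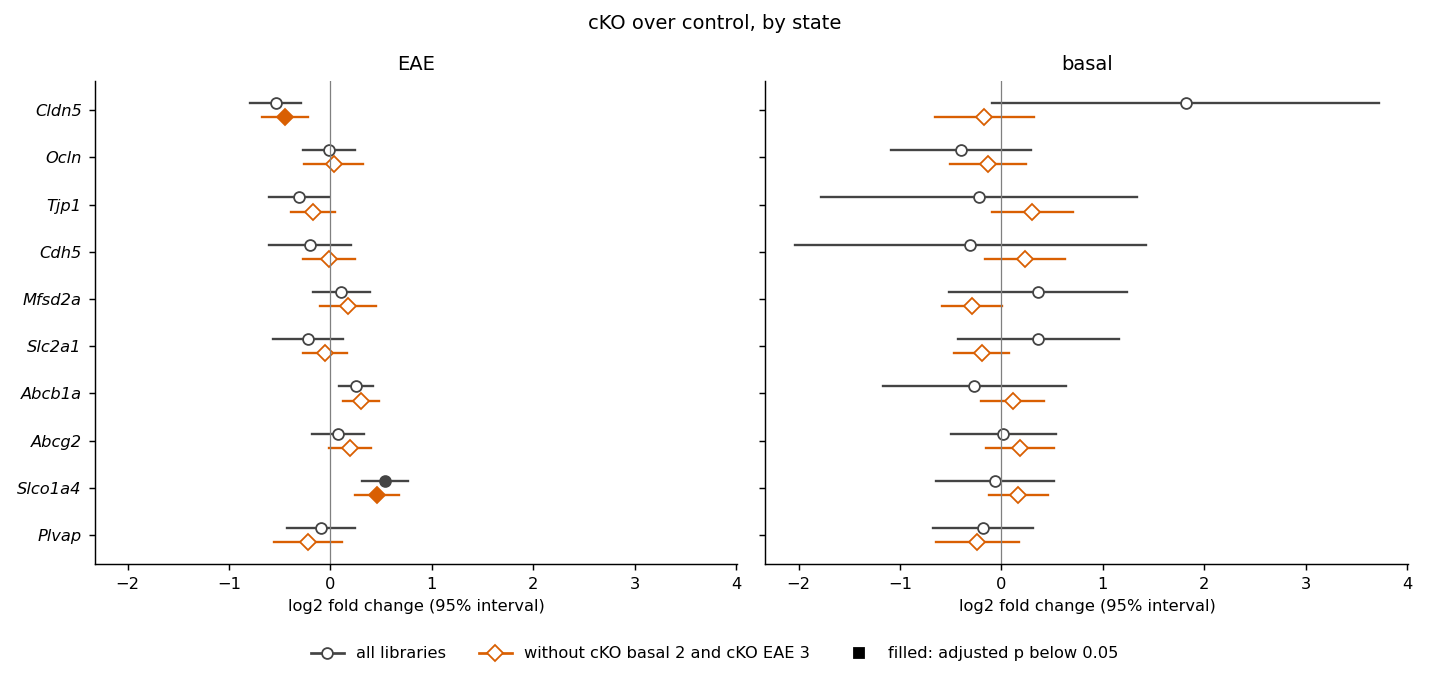
Fitted log2 fold changes of cKO over control (horizontal axis) with approximate 95% intervals for each barrier gene, at EAE on the left and basal on the right. An interval can exclude 0 where the test had a p above 0.05. Circles are the fit of all 6 libraries of that state and diamonds the fit without the library cKO EAE 3 (EAE) or cKO basal 2 (basal); filled symbols have an adjusted p below 0.05. Slco1a4, at 0.54 and 0.46, was the only gene called in both fits at EAE.

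Because the general endothelial markers were higher at EAE, each barrier gene was also set against them within each library, as its log2(CPM + 1) minus the mean of the 15 markers. The marker mean itself was 5.27 in control EAE and 4.29 in control basal on this scale, 0.98 higher at EAE, so every gene shifts down by that amount. In control mice 7 of the 10 genes then lay lower in every EAE library than in any basal library and none higher, against 77.5% of all 18601 genes tested lower and 8.89% higher, with a median of -0.97 over all genes. The share of the 10 is thus near that of all genes. The difference of EAE minus basal was -1.44 for Mfsd2a, -1.19 for Plvap, -0.96 for Slco1a4, -0.68 for Ocln, -0.52 for Slc2a1, -0.52 for Abcg2 and -0.42 for Abcb1a. Cldn5 (0.10), Tjp1 (0.12) and Cdh5 (0.30) overlapped, so these junction genes stayed nearer to the marker mean. Plvap's own level overlapped between the states, with a fitted log2 fold change of -0.24. In cKO mice, where the marker mean was 0.98 higher at EAE as well, 4 of the 10 lay lower and none higher, against 60% lower and 0.355% higher of all genes and a median of -0.86, with Mfsd2a at -1.55, Plvap at -1.16, Slc2a1 at -1.03 and Abcg2 at -0.49. Without cKO basal 2 there were 6 lower, with Mfsd2a at -0.87, Plvap at -0.91, Slc2a1 at -0.40 and Abcg2 at -0.47, joined by Ocln (-0.40) and Tjp1 (-0.36). Without cKO EAE 3 as well there were 8 lower and 1 higher (Cdh5, 0.11), with Mfsd2a at -0.94 and Plvap at -1.15. The share of all genes was not computed for these smaller sets of libraries, in which groups separate more easily. Within EAE, cKO cords lay above control cords for Slco1a4 (0.64) and Abcb1a (0.36) and below for Cldn5 (-0.43) and Tjp1 (-0.21), against 20.7% above and 15.1% below of all genes.

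With all libraries kept, each of these separations has an exact two-sided permutation p of 0.10, the smallest that 3 against 3 libraries allow. After Benjamini-Hochberg adjustment over 40 such tests it was 0.267, so none can pass. With fewer libraries the smallest possible p is not lower. The choice of marker summary mattered. With the median of the 15 markers in place of their mean, only Mfsd2a (-1.06), Plvap (-0.81) and Slco1a4 (-0.59) lay lower in control EAE cords, while Cldn5 (0.47), Tjp1 (0.50) and Cdh5 (0.67) lay higher. By that median 56.1% of all genes lay lower in control EAE cords and 11.1% higher. In cKO mice 2 of the 10 lay lower and 2 higher by the median, against 36.3% of all genes lower and 0.952% higher. Mfsd2a and Plvap lay below in both genotypes by either summary. Within EAE, Slco1a4 (0.68) and Abcb1a (0.40) stayed above by the median, while Cldn5 (-0.38) and Tjp1 (-0.17) overlapped. Of all genes 21.4% lay above and 8.22% below there. With Ly6c1, Pecam1, Eng and Cd34 left out of the marker mean, 7 of the 10 genes lay lower and 1 higher in control EAE cords. In cKO EAE cords 5 lay lower and 0 higher, and within EAE 3 lay below and 2 above. The share of all genes was not computed for that shorter list.

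**Figure D5:**
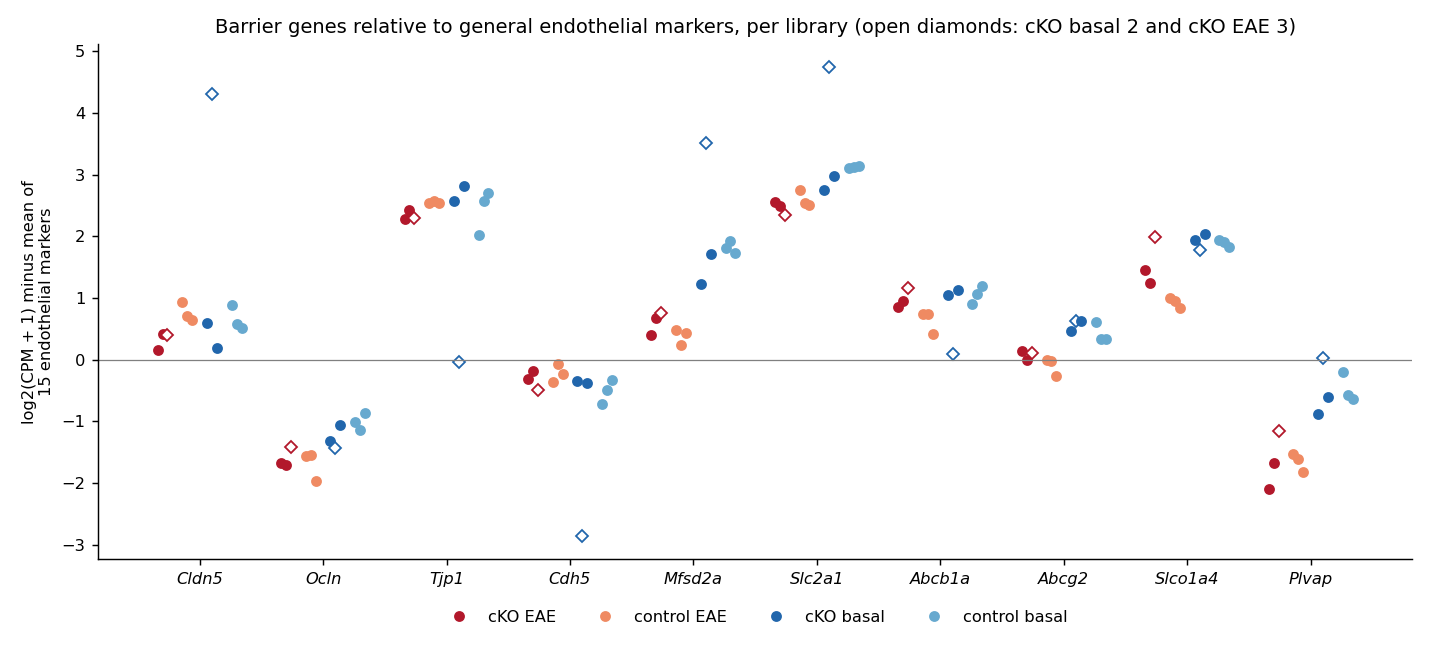
Level of each barrier gene relative to the general endothelial markers (vertical axis, log2(CPM + 1) minus the mean over 15 markers) in every library, by group; open diamonds are cKO basal 2 and cKO EAE 3. The EAE points of Mfsd2a and Plvap lie below the basal points in both genotypes, at -1.44 and -1.19 in control mice, where the median of all genes was -0.97.

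The rest of the barrier genes were read from 4 lists that do not hold the 10 genes. The endothelial markers share Pecam1 and Esam with the junction list and Kdr, Flt1, Tek and Tie1 with the list of caveolae and vessel leak. In control mice at EAE, by the 12-library fit of edgeR with Benjamini-Hochberg adjustment, 3 of 19 tested other junction genes rose and 1 fell, against 17.1% of all genes (12.1% higher and 5.05% lower), with a median log2 fold change of 0.29. On the log2 scale F11r, a junctional adhesion molecule, rose by 2.97 (SE 0.58), Nectin2, an adhesion protein, by 1.61 (SE 0.42) and Pecam1, an endothelial adhesion protein, by 1.497 (SE 0.29), while the scaffold Magi1 was at -0.70 (SE 0.15). Of 21 other transporters and receptors 5 rose and none fell (median 0.24). These included Slco2b1, a carrier of organic anions, at 2.62 (SE 0.49), the amino acid carrier Slc38a5 at 2.04 (SE 0.41), Abcb1b, the other P-glycoprotein gene of rodents, at 1.46 (SE 0.24) and the efflux pump Abcc4 at 1.16 (SE 0.29). Of 16 genes of caveolae and vessel leak 5 rose and 1 fell (median 0.62). The caveolar genes Ehd2 (2.11, SE 0.29), Cavin1 (1.17, SE 0.19) and Cav1 (1.03, SE 0.27) rose, as did Angpt1 (0.79, SE 0.23), the ligand of the receptor Tie2. The gene that fell was the peptide ligand Apln (-1.09, SE 0.32), named after its value was seen. Of 20 genes of endothelial Wnt signalling and barrier transcription factors only Sox7, a transcription factor of endothelium, passed in that fit (1.05, SE 0.32; median of the list 0.40). Without cKO basal 2 and cKO EAE 3, control mice had 8 junction genes higher and 2 lower at EAE, and 8 transporters higher and 1 lower. The Wnt list then had 10 higher and 2 lower and the caveolae list 13 and 2, against 24.9% of all genes higher and 20.8% lower.

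In cKO mice none of these 4 lists had a called gene in the 12-library fit, with medians of 0.33, 0.35, 0.57 and 0.69 for the junction, transporter, Wnt and caveolae lists. Without cKO basal 2 and cKO EAE 3, the junction list had 4 genes higher and 1 lower, the transporters 6 and 1, the Wnt list 5 and 0, and the caveolae list 8 and 0, each higher or lower at EAE in cKO mice, against 10.8% of all genes higher and 3.51% lower. Between the genotypes at EAE, Cgnl1 (0.81, SE 0.12), a junction protein of the cingulin family, and Magi1 (0.56, SE 0.11) were higher in cKO cords, where 6.13% of all genes were called higher and 1.54% lower. Among the transporters Slc22a8, a carrier of organic anions like Slco1a4, was higher at 1.59 (SE 0.28), as was the amino acid carrier Slc7a1 at 0.51 (SE 0.12). The efflux pumps Abcc1 (-0.64, SE 0.11) and Abcb1b (-0.62, SE 0.14) were lower in cKO cords. Of the caveolae list Cavin2 was higher (0.77, SE 0.14), and of the Wnt list 0 of 20 passed. The adjusted p of these genes ran from 0.0440 to 0.0497. These calls were lost without cKO EAE 1 or any 1 of the control EAE libraries, each time with 0 genes called in all. They were also lost with the replicate block and with all 12 libraries in the fit (0 genes each). At basal none of the 4 lists had a called gene.

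Reads that could belong to a second gene touch some of these values. Abcb1b, close in sequence to Abcb1a, averaged 10.03 ± 1.47 CPM in cKO EAE, 15.8 ± 0.793 in control EAE, 5.21 ± 1.02 in cKO basal and 5.76 ± 0.966 in control basal (SD, n = 3 each), below Abcb1a in every group; it was lower in cKO EAE where Abcb1a was higher, and reads may be split between both. Of the relatives of Slco1a4, Slco1a1 had 0 counts in every library and Slco1a5 had 1 to 11 counts in cKO EAE, 19 to 29 in control EAE, 0 to 3 in cKO basal and 0 to 1 in control basal. Plvap overlaps Gtpbp3 on the opposite strand, which had 100 to 551 counts per library, and with the strand setting unknown their reads cannot be told apart.

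By Pearson correlation of log2(CPM + 1) with Cldn5 over all 12 libraries, the nearest of 16425 genes were Copz2 (0.986), Dpagt1 (0.982), Tnfsf12 (0.980), Pttg1ip (0.980) and Vamp5 (0.978). The libraries share their depth, and cKO basal 2 weighs on this order: without it and cKO EAE 3 the nearest were Cyb5r3 (0.990), Lfng (0.987), Cdc42ep4 (0.986), Prkch (0.986) and S100a10 (0.984), none of them the same. For Plvap the nearest over 12 libraries were Tnnt2 (0.907), Polr2c (0.879), Dtx3 (0.865), Eef1akmt2 (0.860) and Nelfb (0.849), and over the 10 libraries Ei24 (0.946), Ppp1r16a (0.933), Ddx56 (0.928), Gcdh (0.923) and Ankra2 (0.920).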

How the data were processed

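Per the submitters' processing notes, reads were aligned with HISAT2 2.0.5 and counted with featureCounts 1.5.0-p3 on mm10; the strand setting, annotation release and treatment of reads with several matches are not given in the sources used here. Deposited by the authors is a table that holds raw counts per gene for the 12 libraries, each labelled a biological replicate. Whether same-numbered mice shared a litter is not given.

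Counts were tested mainly with the quasi-likelihood test of edgeR (edgeR 4.0.16, limma 3.58.1, R 4.3.3) with TMM scaling, edgeR's filter on low counts and Benjamini-Hochberg adjustment over all genes tested, at an adjusted p below 0.05. EAE was compared with basal in 1 fit of 12 libraries, and genotypes within the 6 libraries of each state. The SE is the log2 fold change divided by the square root of F. CPM use TMM-scaled totals; RPKM divide them by the deposited gene length. Levels relative to endothelial markers used a pseudocount of 1 and an exact permutation test. Scripts were tested on simulated data.

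All 10 genes were named in each comparison, and of each of the 4 other lists up to 4 genes with the smallest p; likeness named 5 genes with a mean of at least 1 CPM. The genes and lists were chosen with earlier results of these data known. Alternatives were DESeq2 1.42.0 (size factors and Wald test), no filter, limma voom with sample weights, a replicate block, other sets of libraries and leaving out each library. Leaving out both libraries that stood apart, and a shorter marker list, were added after seeing the data.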

Additional observations from a re-analysis of the deposited data

How the results depend on the processing

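With 3 libraries a group, calls rest on single libraries, and the cause of the changes below was not tested. Of 818 log2 fold changes of the 10 genes under the alternatives, 692 kept direction and side of the threshold, 44 passed in addition, 7 no longer passed and 75 changed sign, 71 of them called in neither fit. Those with a call were of EAE over basal in cKO mice, for Cldn5 (0.71 with limma voom, 0.77 without cKO basal 2 and cKO EAE 3) and Slc2a1 (0.54 and 0.55).

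At basal, cKO over control gave with limma voom and without both libraries, in this order, -0.067 and -0.17 for Cldn5, 0.12 and 0.31 for Tjp1, 0.12 and 0.24 for Cdh5, -0.30 and -0.29 for Mfsd2a, -0.19 and -0.19 for Slc2a1, 0.034 and 0.11 for Abcb1a and 0.18 and 0.17 for Slco1a4; Abcg2 was -0.014 with no filter. The difference of both responses gave, in the same order, -0.25 and -0.31 for Cdh5, 0.41 and 0.41 for Mfsd2a, 0.13 and 0.082 for Slc2a1, -0.098 and -0.056 for Abcg2 and -0.29 and -0.035 for Plvap. With DESeq2's size factors it was -0.046 for Abcg2 and -0.016 for Plvap, with DESeq2's Wald test -0.050 for Abcg2, and with the replicate block 0.039 for Tjp1. At EAE Ocln was 0.022 with limma voom and 0.031 without both libraries.

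Leaving out 1 library, cKO over control at basal ran from -0.17 to 2.30 for Cldn5, -0.62 to 0.31 for Tjp1, -0.89 to 0.24 for Cdh5, -0.29 to 0.61 for Mfsd2a, -0.19 to 0.58 for Slc2a1, -0.61 to 0.11 for Abcb1a, -0.13 to 0.19 for Abcg2 and -0.28 to 0.17 for Slco1a4, and in all of these but Abcg2 the sign changed only without cKO basal 2. The difference of both responses ran from -0.67 to 0.27 for Tjp1, -0.49 to 0.64 for Cdh5, -0.51 to 0.35 for Mfsd2a, -0.16 to 0.19 for Abcg2 and -0.10 to 0.22 for Plvap. EAE over basal ran from -1.79 to 0.68 for Cldn5 and -0.40 to 0.39 for Slc2a1 in cKO mice and from -0.096 to 0.042 for Slco1a4 in control mice. At EAE, cKO over control ran from -0.078 to 0.031 for Ocln, -0.00075 to 0.22 for Mfsd2a, -0.044 to 0.19 for Abcg2 and -0.22 to 0.050 for Plvap.

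For EAE against basal in cKO mice, 7 genes were called, against 493 with no filter, 1239 with DESeq2's Wald test, 3648 with limma voom, 0 with the 6 cKO libraries only, 2715 without cKO basal 2 and cKO EAE 3, and 5 to 1075 without 1 library (1075 without cKO EAE 3). Of the 10 barrier genes 0 were called, against 8 with limma voom (19.6% of all genes) and 4 without both libraries (14.3% of all genes). In control mice 3183 genes were called, against 11120 with limma voom, 8149 with the 6 control libraries only, 8673 without both libraries and 1724 to 8166 without 1 library (8166 without cKO basal 2). The count fell to 1833, 2073 and 1767 without control EAE 1, 2 and 3, and to 1936, 1752 and 1724 without control basal 1, 2 and 3. Of the barrier genes 0 were called there, against 1 with DESeq2's Wald test (Abcg2, beside 24.1% of all genes) and 8 with limma voom (59.8%). The count was 7 with the 6 control libraries (45.6% of all genes) and 7 without both libraries (45.8%). It was 0 to 7 without 1 library, with 7 only without cKO basal 2 (42.9%). The difference between both responses had 0 genes, against 91 with DESeq2 and 2999 with limma voom.

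For cKO against control at EAE, 1374 genes were called, against 4131 with DESeq2's Wald test, 5790 with limma voom, 0 with all 12 libraries in the fit, 3336 without both libraries and 0 to 3418 without 1 library (3418 without cKO EAE 2, 3336 without cKO EAE 3 and 0 without each of the others). The barrier genes had 1 call (7.67% of all genes), against 0 with DESeq2's size factors (5.74%) and 2 with DESeq2's Wald test (Cldn5 and Slco1a4, beside 23.1%). There were 3 with limma voom (Abcb1a too, beside 32.3% of all genes) and 0 with all 12 libraries (0%). There were 2 without both libraries (18.2%) and 0 to 2 without 1 library (0 to 18.6%). At basal 0 genes were called, and 1 by DESeq2.

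The labels do not say that same-numbered libraries belong together, and their deviations correlated between -0.553 and 0.482, so they were not treated as pairs. With the replicate block, 0 genes and 0 barrier genes were called for cKO against control at EAE (Slco1a4 0.53, adjusted p = 0.132), 5 genes for EAE in cKO mice and 2509 in control mice, 0 for the difference of both and 0 at basal.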
